A study of Mus musculus with 32 samples.

Results

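Transcripts of 9 cardiac muscle genes were measured in the lungs of *Clic4* knockout (KO) and wildtype (WT) mice. The genes were *Myh6*, *Myl7*, *Myl4*, *Actc1*, *Tnnt2*, *Tnni3*, *Tnnc1*, *Sln* and *Nppa*, 9 of the 29511 genes in the count table. They were listed because *Myh6* was lower in KO than in WT lungs at 14 days, so the levels in 14-day lungs are given as a description without a test. All 9 passed the filter on low counts in lungs, which left 16029 genes. The animals were virgin female FVB/N mice that entered experiments at 6 to 8 weeks, KO and WT littermates from intercrosses of heterozygotes. Their age when the lungs were taken is not stated by the study. In the tumor-bearing mice, 6DT1 mammary tumor cells, a line from an MMTV-Myc tumor, had been implanted in a mammary fat pad 14 days before the lungs were taken (6 WT and 6 KO lungs), while the control lungs came from other mice without a tumor (4 WT and 4 KO lungs). The KO allele lacks the region around exon 2 of *Clic4*, so reads from the rest of the gene remained. The sources do not say which lobe of each lung was sequenced.

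Cardiac muscle is not confined to the heart in mice. A sleeve of cardiomyocytes runs along the pulmonary veins into the lung, and its cells resemble those of the atrium. Cardiomyocytes contract by sliding thick filaments of myosin along thin filaments of actin, on which the troponin complex senses calcium. In bulk tissue, fewer cardiomyocytes and less RNA per cardiomyocyte cannot be told apart.

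Between 4567220 and 8318711 counts per lung were assigned to genes, of which 2476 to 5673 counts, or 0.0497 to 0.0987% of a lung's total, came from the 9 genes. *Clic4*, the targeted gene, was at 165 ± 6.61 FPKM in control WT lungs and 61.2 ± 5.98 in control KO lungs (SD, n = 4 each), and at 181 ± 30.6 in 14-day WT and 65.1 ± 7.49 in 14-day KO lungs (n = 6 each). FPKM values are scaled for transcript length and library size, so that levels of different genes can be compared. At each time, the highest KO lung lay under the lowest WT lung. Markers of alveolar and airway cells such as *Sftpc* and *Scgb1a1* were high in every lung, with a summed level of 32927 to 39448 FPKM for 8 of 8 listed genes.

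RefSeq (GRCm38.p6) gave 9 promoter windows of 250 bases before a start site, for 8 of the 9 genes matched by symbol. *Sln* was not matched. The 4 windows with no annotated exon are shown, so that the motif letters can be seen in place. Each is written 5′ to 3′ on the strand of the gene and ends at the base before the start site. Capitals mark matches on either strand to the CArG box, to the 6 letters CATTCC, to the 6 letters of the TATA box (TATAAA) or to a GATA site. A GATA site was counted where the window held AGATAA or, as the second of its 4 spellings, AGATAG. The remaining spellings that were searched begin with T in place of A, and they were TGATAA as found in the *Myl7* window and, with a G as its last letter, TGATAG. The windows lie at chr11:5898783-5899032 (minus strand) for *Myl7*, chr1:135836084-135836333 (plus strand) for *Tnnt2*, chr14:31208062-31208311 (plus strand) for *Tnnc1* and chr4:148000472-148000721 (plus strand) for *Nppa*.
Myl7: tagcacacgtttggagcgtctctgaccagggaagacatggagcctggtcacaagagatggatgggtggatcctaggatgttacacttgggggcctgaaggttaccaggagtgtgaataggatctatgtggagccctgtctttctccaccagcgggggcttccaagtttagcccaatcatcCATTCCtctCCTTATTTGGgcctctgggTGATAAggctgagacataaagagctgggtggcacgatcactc
Tnnt2: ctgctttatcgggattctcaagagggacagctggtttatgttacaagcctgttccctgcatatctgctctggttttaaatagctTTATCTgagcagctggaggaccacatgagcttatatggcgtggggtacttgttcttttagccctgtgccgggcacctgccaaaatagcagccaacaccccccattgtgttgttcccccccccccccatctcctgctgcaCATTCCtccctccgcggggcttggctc
Tnnc1: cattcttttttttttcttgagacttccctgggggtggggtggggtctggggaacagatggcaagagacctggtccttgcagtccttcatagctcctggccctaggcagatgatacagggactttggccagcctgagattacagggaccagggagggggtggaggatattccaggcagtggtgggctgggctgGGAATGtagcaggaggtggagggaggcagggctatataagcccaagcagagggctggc
Nppa: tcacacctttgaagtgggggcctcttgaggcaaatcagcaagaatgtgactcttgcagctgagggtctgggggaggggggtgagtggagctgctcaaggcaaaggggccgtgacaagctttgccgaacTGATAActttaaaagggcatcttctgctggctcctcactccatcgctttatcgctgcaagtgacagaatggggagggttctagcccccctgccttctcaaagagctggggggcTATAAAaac

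*Myl7* held CATTCC at position -70, a CArG box at -61 and TGATAA at -42, counted from the start site. Of the 8 genes with a window, 4 held GATA (*Myh6*, *Tnnt2*, *Myl7* and *Nppa*) and 4 held CATTCC (*Myh6*, *Tnnt2*, *Tnnc1* and *Myl7*), against 26.6% and 12.6% of 32817 promoters of the same length. The CArG box was in 2 genes (*Actc1* and *Myl7*) and in 1.47% of all promoters, and TATAAA was in 1 gene (*Nppa*) and in 12.4%. The MEF2 site was in 0 of the 8 genes and in 1.69% of all promoters. The motifs did not overlap in the windows shown, and a match to these letters is a description and not evidence of a bound site. The 9 genes lie on 7 chromosomes. *Nppa* is on chromosome 4, as is *Clic4*, at a distance of 12.73 Mb. *Myh6* (chr14:54941921-54966927, minus strand, GRCm38) lies 3757 bases from *Myh7*, its ventricular and slow-muscle counterpart.

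All 9 genes were detected in every lung. Over the 20 lungs, the mean level was 87.0 FPKM for *Myh6* (59.2 to 132.6), 86.3 for *Myl7* (60.5 to 117.3), 75.7 for *Myl4* (53.9 to 103.6) and 60.8 for *Actc1* (46.0 to 76.4). It was 55.6 FPKM for *Tnnt2* (37.5 to 90.6), 49.8 for *Tnni3* (30.9 to 81.5), 17.9 for *Sln* (11.4 to 29.4), 15.1 for *Tnnc1* (9.86 to 21.1) and 4.42 for *Nppa* (0.54 to 13.3). Neighbours in this order overlapped in range, except that every value of *Tnni3* was above every value of *Sln*. In the 12 tumors, *Myh6*, *Actc1* and *Myl7* had 0 counts in every library, which allows up to 0.460 to 0.675 CPM (3 counts of the total, scaled to library size, for counting error only). *Tnnt2* was the exception among the sarcomere genes, with 16.1 to 36.7 FPKM in tumors, and the other 5 genes were at 0 to 4.71 FPKM there.

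Light chains of the atrium were far above those of the ventricle. *Myl7* and *Myl4*, the atrial regulatory and essential light chains, stood at 60.5 to 117.3 and 53.9 to 103.6 FPKM. Their ventricular counterparts were far lower, *Myl2* with 0 to 5 counts per lung (0 to 2.75 FPKM) and *Myl3* with 2 to 16 counts (0.5 to 5.47 FPKM). *Irx4*, a transcription factor of the ventricle, had 0 counts in all 20 lungs. *Myh7*, the heavy chain of the ventricle and of slow muscle, was not low, at 17.57 to 38.15 FPKM. *Nppb*, the second cardiac natriuretic peptide, had 0 to 3 counts, and the transcription factor *Nkx2-5* had 0 to 2. *Nkx2-5*, a defining cardiac factor, was thus near 0 in lungs in which all 9 genes were detected. Markers of skeletal muscle were low, with *Myh4* and *Pvalb* at 0 counts in all 20 lungs and a summed level of 13.1 to 29.3 FPKM over 15 genes. *Ckm*, the highest of the 15 on average, was at 3.55 to 10.28 FPKM. The highest sum was in 14-day KO lung 6, which had 19 counts of *Myh1* and 36 of *Acta1*. RSEM divides reads among near-identical copies, so *Actc1* is uncertain against *Acta1*, *Acta2* and *Actg2*, and *Myh6* against *Myh7*. *Dnaaf3* overlaps exons of *Tnni3* on the same strand, and on the opposite strand *Nisch* overlaps exons of *Tnnc1*, Gm49130 those of *Myh6*, A530058N18Rik those of *Actc1*, Gm22000 those of *Myl4* and Gm13054 those of *Nppa*. The strand setting of the counting is not given in the sources used here.

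**Figure D1:**
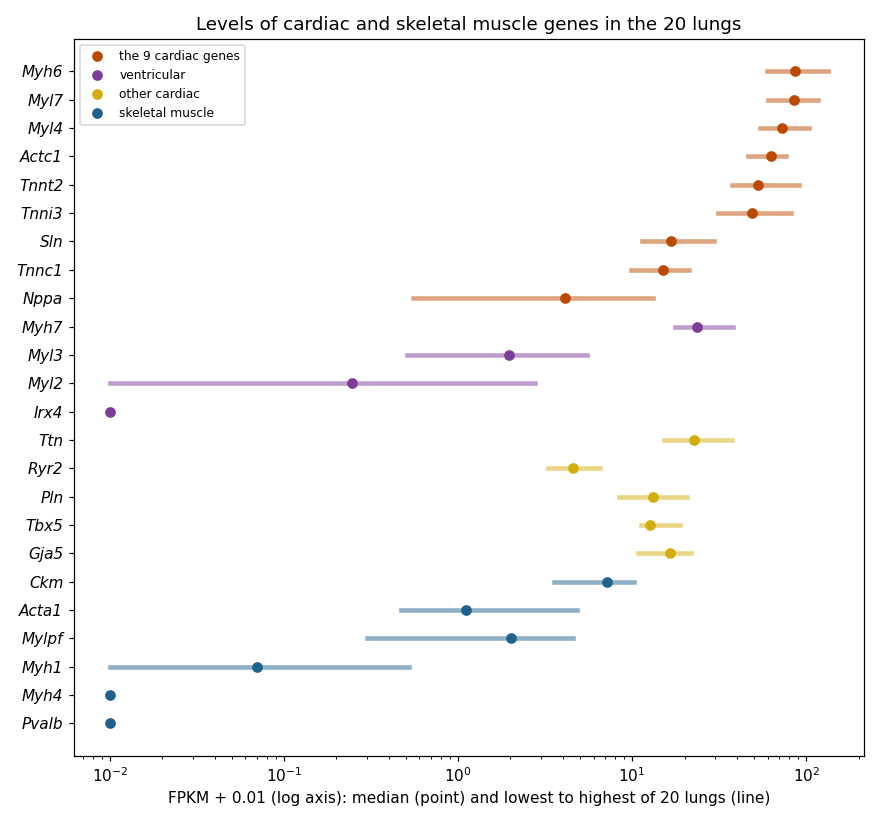
Level of each gene in the 20 lungs as FPKM + 0.01 on a log axis, with the median as a point and the lowest to highest lung as a line. The 9 cardiac genes lay between 0.54 and 132.6 FPKM, *Myl2* and *Myl3* did not exceed 5.47, and *Irx4*, *Myh4* and *Pvalb* were at 0. Of the genes drawn as ventricular, *Myh7* was at 17.57 to 38.15 FPKM.

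The thick filament was compared first. *Myh6* encodes the fast alpha heavy chain of myosin, the heavy chain of the atrium and, in adult mice, of the whole heart. It was at 82.4, 69.3, 111.7 and 93.8 FPKM in the 4 control WT lungs and at 64.6, 81.8, 89.5 and 92.2 in the 4 control KO lungs. The groups overlapped, and the control means were 89.3 ± 17.98 and 82.0 ± 12.4 (SD, n = 4). At 14 days, the 6 WT lungs ranged from 96.9 to 132.6 FPKM with a median of 103.2, and the 6 KO lungs from 59.2 to 76.1 with a median of 68.3. No 14-day KO lung reached any 14-day WT lung, a separation that 0.293% of all genes tested showed in that direction and that is not a finding here, as *Myh6* was picked by it. In order of means, 14-day WT (108.0 ± 13.2) was followed by control WT, control KO and 14-day KO (67.8 ± 6.75). Neighbours in that order overlapped in range.

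*Myl7* (chr11:5896637-5898782, minus strand) was at 90.1, 97.0, 91.7 and 98.4 FPKM in control WT lungs and at 64.2, 70.9, 99.6 and 80.0 in control KO lungs. Control KO lung 3 exceeded all 4 WT lungs and the other 3 were below them. At 14 days, *Myl7* ranged from 76.3 to 117.3 with a median of 100.4 in WT lungs and from 60.5 to 95.4 with a median of 70.6 in KO lungs. *Myl4* (chr11:104550663-104595753, plus strand) was at 84.0, 71.6, 91.7 and 88.8 FPKM in control WT lungs and at 65.5, 68.8, 67.1 and 78.5 in control KO lungs. At 14 days it ranged from 66.6 to 103.6 in WT lungs (median 85.8) and from 53.9 to 84.8 in KO lungs (median 59.5), and 14-day KO lung 6 held the highest KO value of both light chains.

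In the thin filament, *Actc1* (cardiac alpha actin, chr2:114047282-114053548, minus strand) was at 65.2, 64.6, 68.1 and 68.8 FPKM in control WT lungs and at 46.1, 56.8, 62.6 and 64.8 in control KO lungs. Control WT and KO lungs overlapped narrowly. At 14 days *Actc1* spanned 49.7 to 76.4 in WT lungs (median 60.7) and 46.0 to 66.3 in KO lungs (median 60.3), nearly the same median. *Tnnt2* (chr1:135836354-135852260, plus strand), the troponin that binds tropomyosin, was at 53.2, 60.5, 60.5 and 70.7 FPKM in control WT lungs and at 37.5, 44.1, 57.6 and 52.1 in control KO lungs. At 14 days it spanned 52.1 to 90.6 in WT lungs (median 65.0) and 38.8 to 51.7 in KO lungs (median 44.0). The *Tnnt2* ranges at 14 days did not overlap in FPKM but did overlap in CPM, counts scaled by TMM library sizes and not by length. For FPKM, the share of all genes so separated was not computed. Nothing is read from this separation, since the 14-day lungs chose the genes.

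*Tnni3* (chr7:4518305-4524229, minus strand), the inhibitory troponin, was at 48.6, 48.9, 51.2 and 51.9 FPKM in control WT lungs and at 43.0, 44.0, 50.7 and 47.6 in control KO lungs. At 14 days it spanned 48.3 to 81.5 in WT lungs (median 56.7) and 30.9 to 51.1 in KO lungs (median 39.1). Both times overlapped. *Tnnc1* (chr14:31208312-31211729, plus strand), the calcium-binding troponin of cardiac and slow muscle, was at 17.3, 12.4, 20.8 and 17.9 FPKM in control WT lungs and at 9.86, 15.1, 11.1 and 13.1 in control KO lungs. At 14 days it spanned 14.0 to 21.1 in WT lungs (median 18.3) and 10.3 to 15.6 in KO lungs (median 13.6). The highest KO lungs exceeded the lowest WT lung at each time.

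*Sln* (chr9:53850164-53854560, plus strand) encodes sarcolipin, an inhibitor of the calcium pump of the sarcoplasmic reticulum, and is an atrial gene in the mouse heart. It was at 16.5, 11.4, 22.8 and 18.1 FPKM in control WT lungs and at 14.0, 14.7, 19.7 and 15.6 in control KO lungs. At 14 days it spanned 17.0 to 29.4 in WT lungs (median 18.9) and 13.1 to 24.9 in KO lungs (median 16.0). *Nppa* (chr4:148000722-148002079, plus strand), which encodes atrial natriuretic peptide, was at 3.10, 0.54, 4.54 and 4.24 FPKM in control WT lungs and at 4.46, 5.39, 3.90 and 5.38 in control KO lungs. These rested on 2 to 19 counts per lung. At 14 days *Nppa* spanned 0.80 to 9.26 in WT lungs (median 3.34) and 1.77 to 13.3 in KO lungs (median 4.03). The highest *Nppa* value was that of 14-day KO lung 3, with 56 counts, and 31 counts of *Ucp1*, a marker of brown fat, were found in that lung, whose part in the result was not tested.

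**Figure D2:**
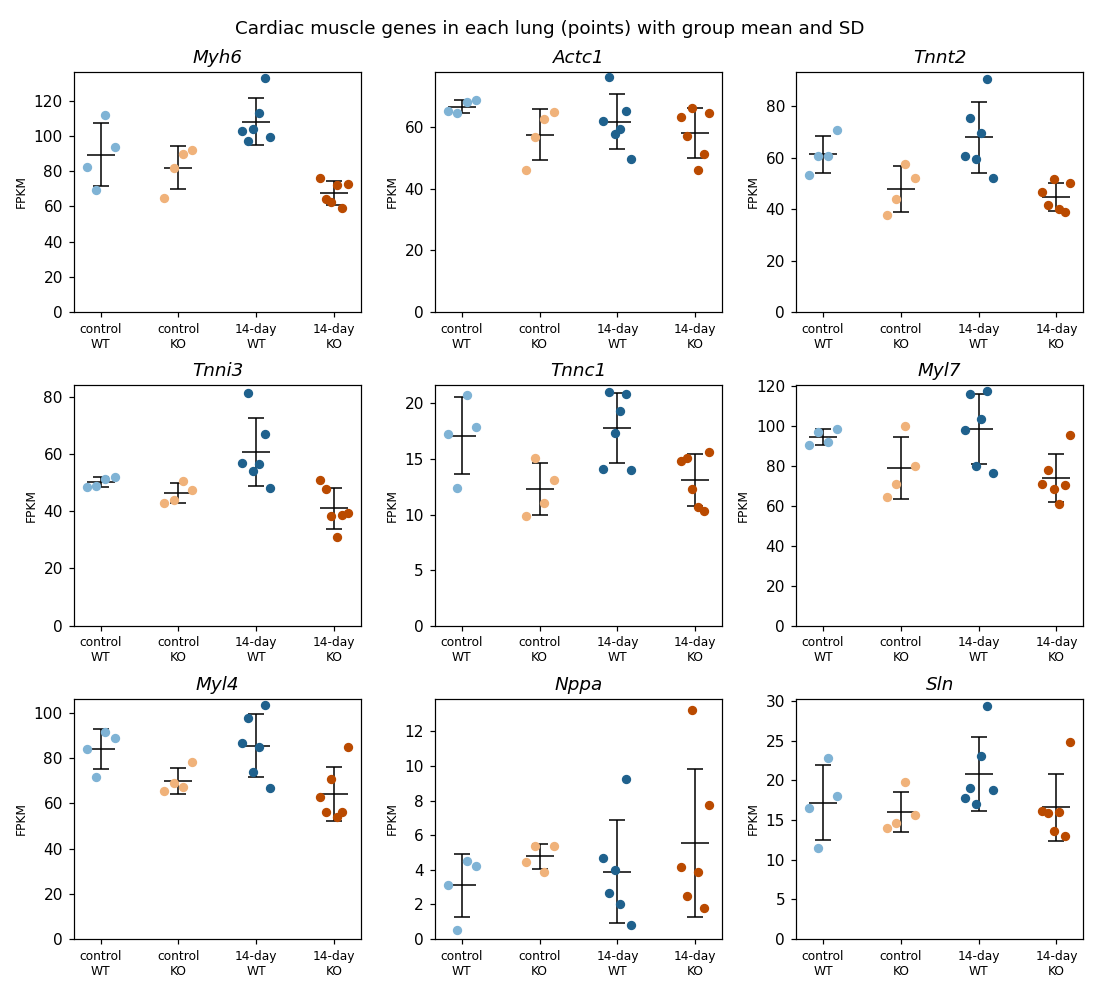
FPKM of each gene in every lung (points) by group, control WT, control KO, 14-day WT and 14-day KO, with the mean as a line and the SD as a bar (n = 4 or 6). In 14-day lungs, every KO point of *Myh6* (59.2 to 76.1) lay below every WT point (96.9 to 132.6), whereas the control groups overlapped for all 9 genes.

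The genotypes were tested only in control lungs, which the choice of the genes did not use, by edgeR's quasi-likelihood test with limits of 0.25 for the FDR (false discovery rate) and 1.5 for the fold change. The level of 8 of the 9 genes was lower on average in KO lungs, but 0 of 9 passed the limits, against 0.231% of all genes tested (0.143% lower in KO). A negative log2 fold change was seen in 50.9% of all genes tested. *Myh6* was 0.24 lower on the log2 scale (SE 0.12, FDR 0.442 by edgeR), and *Tnnc1* differed most among the sarcomere genes (-0.50, SE 0.19, FDR 0.335). *Nppa* was 0.61 higher (SE 0.60, FDR 0.731), a value that changed to 0.30 without control WT lung 2, in which *Nppa* had 2 counts. The other 6 log2 fold changes lay between -0.31 for *Tnnt2* and -0.08 for *Sln*, with FDR values of 0.421 to 0.926. With 1 lung left out, *Sln* ran from -0.21 without control KO lung 3 to 0.056 without control WT lung 3, so that 7 rather than 8 genes were then lower. Control KO lungs 1 and 3 moved *Myl7* most, to -0.17 and -0.40, and without control KO lung 1 *Myh6* and *Actc1* were at -0.16 and -0.11. An unadjusted p under 0.05 was found for 3 of 9 genes (*Tnnt2*, *Tnnc1* and *Myl4*, all lower in KO), against 6.26% of all genes tested in that direction and 11.6% in either. DESeq2 also called 0 of 9, with 4 at an unadjusted p under 0.05, beside 9 called and 1630 under 0.05 of the 16029 genes. The median log2 fold change of the 9 genes was -0.24, against -0.0039 over all genes tested. No gene of the 9 had every KO lung below every WT lung, which 3.78% of all genes tested did.

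At 14 days, the log2 fold changes of KO against WT lungs are given as a description, since that contrast chose the genes. *Myh6* was at -0.66 (SE 0.10), *Tnnt2* at -0.57 (SE 0.12) and *Tnni3* at -0.51 (SE 0.11). *Tnnc1*, *Myl7* and *Myl4* were at -0.42, -0.40 and -0.40, *Sln* at -0.31 and *Actc1* at -0.08. *Sln* was at -0.18 without 14-day WT lung 5 and -0.47 without 14-day KO lung 6, and *Actc1* at -0.0094 without 14-day WT lung 2 and -0.14 without 14-day WT lung 6. *Nppa* was at 0.56 (SE 0.47), at 0.09 without 14-day KO lung 3 and at 1.01 without 14-day WT lung 5. The median was -0.40, with 8 of 9 values negative beside 49.4% of all genes tested. Calls by the limits are not given for this contrast, which chose *Myh6*, and nothing is read from the count of negative values. Whether the genotype difference changed between control and 14-day lungs was not tested for these genes.

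**Figure D3:**
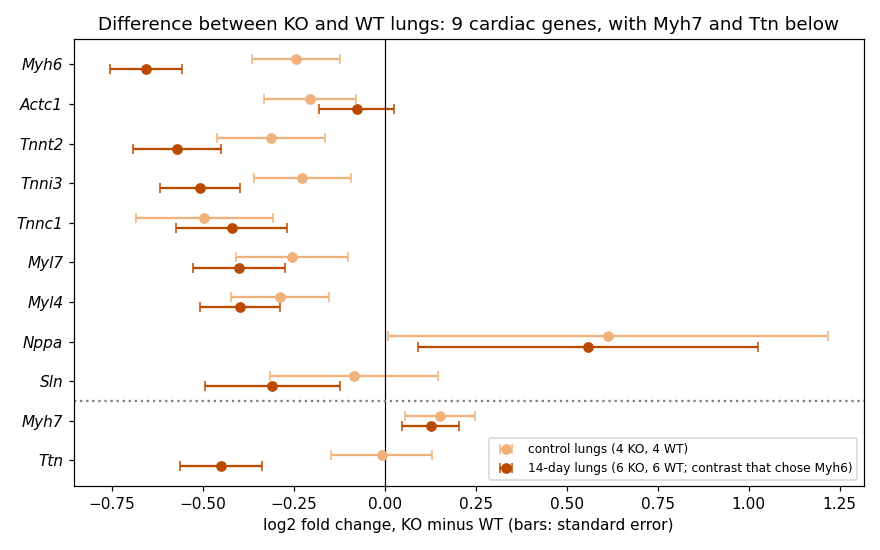
Log2 fold change of KO against WT lungs (x axis) with its standard error, in control lungs (light) and 14-day lungs (dark), for the 9 genes and, below the dotted line, *Myh7* and *Ttn*. *Myh6* was at -0.24 in control lungs and -0.66 at 14 days, while *Myh7* was at 0.15 and 0.13.

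The differences between 14-day and control lungs use the lungs that chose the genes and are given without a test. In WT lungs, *Myh6* was 0.24 and *Sln* 0.29 higher at 14 days on the log2 scale, *Tnnt2* and *Tnni3* were each 0.15 higher, and *Actc1* was 0.10 lower. With a lung left out, the lowest values were 0.16 for *Myh6*, 0.15 for *Sln*, 0.061 for *Tnnt2* and 0.050 for *Tnni3*, and *Actc1* ran from -0.17 to -0.044. *Nppa* was 0.34 higher (SE 0.56), from -0.11 to 0.55 with a lung left out. *Myl7*, *Myl4* and *Tnnc1* were each at 0.06. With a lung left out, *Myl7* ran from 0.0037 to 0.13, *Myl4* from -0.015 to 0.13 and *Tnnc1* from -0.047 to 0.14. The median in WT lungs was 0.15, and 0.0063 without 14-day WT lung 5. In KO lungs, *Myh6* was 0.17, *Tnni3* 0.13 and *Tnnt2* 0.10 lower, and *Tnnc1* was 0.14 higher. With a lung left out, *Myh6* ran from -0.26 to -0.12, *Tnni3* from -0.22 to -0.065, *Tnnt2* from -0.19 to -0.015 and *Tnnc1* from 0.054 to 0.23. *Nppa* was 0.28 higher (SE 0.52), from -0.18 to 0.46 with a lung left out. The median in KO lungs was -0.05, and 0.06 without control KO lung 3. Both contrasts with control lungs compare different animals.

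*Myh7*, the slow heavy chain, is given beside *Myh6* as a description, since *Myh6* was chosen for its 14-day values and the difference between the genes was not tested. Its level over the 20 lungs was 24.5 FPKM on average (17.6 to 38.2), and its log2 fold change of KO against WT was 0.15 in control lungs (SE 0.10, FDR 0.554 by edgeR) and 0.13 at 14 days (SE 0.08). *Myh6* made up 78.6 to 82.3% of the summed FPKM of both heavy chains in control WT lungs and 68.5 to 80.0% in control KO lungs. At 14 days the share was 77.909 to 84.9% in WT lungs (median 82.8) and 62.0 to 77.915% in KO lungs (median 73.5). The 14-day ranges touched at their ends. The FPKM ratio of *Myh6* to *Actc1* was 1.07 to 1.64 in control WT, 1.40 to 1.44 in control KO, 1.27 to 2.03 in 14-day WT and 0.940 to 1.57 in 14-day KO lungs. The ratio of *Myh6* to *Myl7* was 0.714 to 1.22, 0.898 to 1.15, 0.835 to 1.304 and 0.760 to 1.19 in the same order. At each time the WT and KO ranges of both ratios overlapped, and the 14-day ratios contain the *Myh6* values that chose the genes.

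Deviations from the group means were compared lung by lung. In 8 of 20 lungs, all 9 genes lay on the same side of their group mean, and in the other 12 they lay on both sides. They were above it in control WT lung 4, control KO lung 4, 14-day WT lung 5 and 14-day KO lung 6, and below it in control KO lung 1, 14-day WT lung 6 and 14-day KO lungs 4 and 5. The summed FPKM of the 9 genes was 436 to 523 in control WT, 349 to 462 in control KO, 426 to 636 in 14-day WT and 334 to 455 in 14-day KO lungs. The SD of log2 levels within groups was 0.19 to 0.27 for 8 of the genes and 0.70 for *Nppa*, against a median of 0.20 over all genes tested. Relative to *Myl7*, the SD of the log2 ratio was 0.14 for *Myl4*, 0.15 for *Actc1*, 0.17 for *Tnnt2*, 0.18 for *Myh6*, 0.21 for *Tnni3*, 0.23 for *Sln*, 0.24 for *Tnnc1* and 0.68 for *Nppa*. For *Tnni3* and *Tnnc1* this was no smaller than the SD of the gene itself, 0.19 and 0.24.

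**Figure D4:**
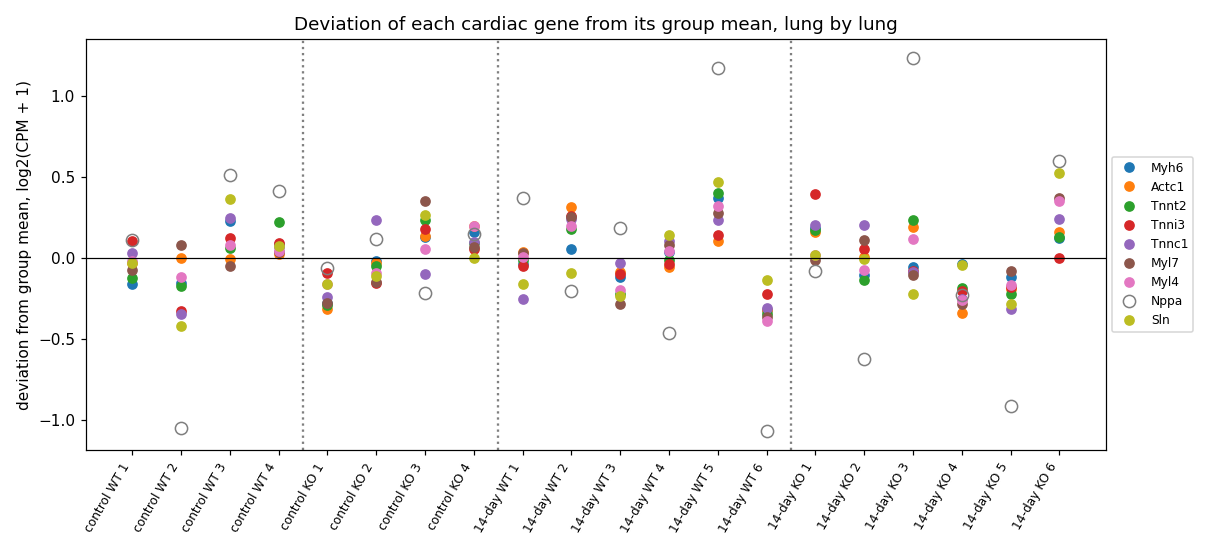
Deviation of each gene from its group mean on log2(CPM + 1), lung by lung, with groups divided by dotted lines and *Nppa* as open circles. The genes lay together above 0 in 14-day WT lung 5 and together below 0 in 14-day WT lung 6, and *Nppa* spread most widely.

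Other cardiac genes were taken from a list of 51, of which 39 were tested. In control lungs, 0 of 39 passed the limits, against 0.231% of all genes tested, with a median log2 fold change of -0.06. An unadjusted p under 0.05 was found for 5 of 39, of which 4 were lower in KO, beside 11.6% of all genes tested in either direction and 6.26% lower in KO. DESeq2 called 0 of 39, beside 9 of the 16029 genes. The count passing the limits was 2 without control WT lung 1 or without control KO lung 1, and 1 (*Cox8b*) without control WT lung 4 or 14-day WT lung 5. The nearest were *Tcap*, a Z-disc protein, at -0.52 (SE 0.14, FDR 0.220, a change below 1.5-fold), and *Cox8b*, a muscle and brown fat subunit of cytochrome oxidase, at 1.25 (SE 0.40, FDR 0.278 by edgeR). *Cox8b* had 12, 10, 14 and 33 counts in the control KO lungs, the highest in lung 4, which also had 68 counts of *Ucp1*. In the sarcomere, *Nebl* (a nebulin-like Z-disc protein) stood at 69.1 FPKM on average, *Myh7* at 24.5 and *Ttn*, the giant spring of the sarcomere, at 22.6. In calcium handling, the pump *Atp2a2* stood at 85.1, its inhibitor *Pln* at 13.1 and the release channel *Ryr2* at 4.51. *Atp2a2* and *Nebl* are made in many other cells, so their levels are not those of cardiomyocytes alone.

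Among the regulators, *Tbx5*, a factor of atrium and lung mesenchyme, stood at 13.2 FPKM, *Hey2* at 1.93 and *Tbx20* at 0.712. Among channels and junctions, *Gja5*, the connexin of atrium and arteries, stood at 16.6, *Popdc2* at 5.69 and *Kcnj3*, a potassium channel subunit of the atrium, at 1.01. In energy supply, *Fabp3* stood at 24.7, *Cox7a1* at 22.7 and myoglobin (*Mb*) at 19.8. *Corin*, the enzyme that cleaves the *Nppa* product, stood at 0.972, and *Bmp10* was at 0 to 3 counts. Of the remaining genes of the list, *Ankrd1* stood at 28.3, *Hspb7* at 4.74 and *Smpx* at 3.24. In 14-day lungs, the contrast that chose the 9 genes, the log2 fold changes of KO against WT are again a description without a test. *Hrc* of the sarcoplasmic reticulum was at -0.73, *Kcnj3* at -0.94, *Ttn* at -0.45 and *Ryr2* at -0.43. In the other direction, *Cox8b* was at 0.47 and *Hey2* at 0.40, and these 6 genes were singled out after their values were seen. Of the 39 genes, 27 were negative, beside 49.4% of all genes tested, and 12 positive, with a median of -0.22.

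The genes most like the mean of the 9 genes over the 20 lungs, by Pearson r of log2(CPM + 1), are given as a description, as all share the same libraries. They were *Ttn* (r = 0.895), *Mybphl* (0.860), *Srl* (0.853), *Ryr2* (0.818), *Art1* (0.813), *Dnajc21* (0.800), *Actn2* (0.790), *Myom2* (0.785), *Hrc* (0.773) and *Atp2a2* (0.763). Of these 10, 6 were on the list of other cardiac genes. After the group means were removed, r of the deviations was 0.654 for *Hrc* to 0.884 for *Ttn*. *Myh7* was at r = -0.287, rank 14284, and *Mybpc3* at rank 13. Of the 9 genes, each against the mean of the others, r ran from 0.144 for *Nppa* to 0.917.

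Markers of other tissues that a lung sample could carry were followed in the same lungs. Smooth muscle genes summed to 228 to 295 FPKM over 8 genes, and in control lungs 7 of 8 had a positive log2 fold change (median 0.23), with 0 called by edgeR and 4 at an unadjusted p under 0.05, beside 0.231% and 11.6% of all genes tested. At 14 days the median of these 8 genes was 0.03. Adipocyte genes summed to 16.7 to 69.97 FPKM over 7 genes, with 5 of 5 tested positive in control lungs (median 0.51), 0 called by edgeR and 1 at an unadjusted p under 0.05. At 14 days, 5 of 5 were negative, with a median of -0.25. Thymus genes summed to 1.64 to 4.58 FPKM and cartilage genes to 0 to 0.95. Their part in the results for the 9 genes was not tested.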

How the data were processed

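RNA of 32 samples was sequenced by the authors from a stranded library, and the 20 lungs were used here, with the 12 tumors only for levels. The authors aligned reads to GRCm38 with STAR and deposited expected counts from RSEM, rounded to whole numbers, and FPKM from the same RSEM run. The deposited expected counts were normalized by TMM and tested with edgeR 4.0.16 (R 4.3.3, quasi-likelihood test, filterByExpr, Benjamini-Hochberg over 16029 genes) in a fit of all 20 lungs with a mean per group. The depth was 4567220 to 8318711 counts per lung. Genes were called with limits of 0.25 (FDR) and 1.5 (fold), those of the study for lungs. Pearson r and deviations used log2(CPM + 1). Alternatives were size factors, no filter, a minimum of 10 counts in every lung, DESeq2 1.42.0, fits of only the compared groups, a replicate block, each lung left out, an FDR of 0.05 and log2(FPKM + 1 or 0.1). The edgeR step was tested on simulated data. The named genes were the 9 cardiac genes, Clic4, the 3 genes of highest FPKM in each role of the list of other cardiac genes, the 10 genes of highest r and, where a result turned on them, marker genes. Hrc, Kcnj3, Tcap, Cox8b, Myl2, Myl3, Irx4, Nkx2-5, Mybpc3, Myh4, Pvalb, Myh1, Acta1 and Ucp1 were added after their values were seen. The 9 genes and all lists were chosen with earlier results of these data known. No columns were left out, and some genes of the lists are not reported here. Per the study, the replicates of a group were different animals. Replicate pairs differed by more than sampling noise (chi-square per degree of freedom of 2.55 or more).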

Additional observations from a re-analysis of the deposited data

Results flagged for a closer look

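Sln stood at 24.86 FPKM in 14-day KO lung 6, the highest of the 6 lungs of that group, and its gap to the next lung was 0.736 of the whole range. Of 36 groups of values examined, 1 stood apart in this way, and chance gives about 1 in 20. All 9 cardiac genes were above their group mean in the same lung, which also had the highest summed skeletal muscle markers, and their part in the Sln value was not tested.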

How the results depend on the processing

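No cardiac gene of the 9 was called in control lungs under any of the alternatives run, with a replicate block or with any lung left out. The median log2 fold change of the 9 genes was -0.25 to -0.22 in control lungs under the other settings, and -0.30 to -0.17 with a lung left out. At 14 days it was -0.42 to -0.40, and -0.48 to -0.34 with a lung left out. Between 14-day and control lungs it was 0.11 to 0.15 in WT (0.0063 to 0.19 with a lung left out) and -0.08 to -0.05 in KO (-0.13 to 0.06). Of 233 fits of single genes in control lungs, 232 kept their direction and side of the limits, and Sln, which ran from -0.21 to 0.056 with a lung left out, turned to 0.056 without control WT lung 3, for which the cause was not tested. Among the other cardiac genes, the count called in control lungs was 0, and 1 (Cox8b) with the replicate block and with only the compared groups, and 0 to 2 with a lung left out. The replicate numbers did not pair the samples, as correlations of same-numbered samples ran from -0.212 to 0.232. Under the replicate block in edgeR, 1 of the 9 genes had an unadjusted p under 0.05, beside 1923 of the 16029 genes tested. Nppa could not be fitted with a minimum of 10 counts in every lung. Depth limits Nppa most, with 2 to 56 counts per lung.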
